A study of Schizosaccharomyces pombe with 9 samples.

Results

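The genes described here are 63 of the 6988 counted genes of Schizosaccharomyces pombe, fission yeast. They are the genes whose product description in the deposited annotation holds the words DNA-binding transcription factor, less some left out by name. These words describe 76 genes, and the selection leaves out 13 of them by gene name or systematic name. Those 13 are certain regulators of phosphate, iron, copper, zinc and glucose genes, of mating, of heat and stress responses, and some near chromosome ends. Other regulators of stress, copper use and sexual development remain, such as hsr1, cuf2 and esc1. The rule uses names and descriptions and no measured value, but it was set with earlier results of these data known. By their systematic names 31 lie on chromosome I, 20 on chromosome II and 12 on chromosome III. The 9 poly(A)+ RNA libraries came from log-phase cultures in YES, a rich yeast-extract medium, at 30°C, 3 biological replicates from each of 3 strains of mating type h-. WT carries intact snf22 and no drug marker. In snf22∆ the start and most of the open reading frame are replaced by the kanMX marker and the end of the gene is kept. In snf22-(D996A-E997A), called the ATPase-site mutant below, a pair of acidic residues of the ATPase active site is changed to alanine and kanMX follows the gene. Both mutants carry the marker and WT does not, so an effect of the marker on its neighbours and the effect of the mutation cannot be told apart, and each genotype is 1 strain.

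Snf22 is the ATPase of SWI/SNF, a complex that uses ATP to slide or evict nucleosomes and so to open or close promoters to other proteins. DNA-binding transcription factors read short sequence motifs in those promoters. In fungi the most common class is the zinc binuclear cluster type, and others are C2H2 zinc fingers, GATA fingers, bZIP, MADS-box and CSL (CBF1/Su(H)/LAG-1) proteins. The comparisons ask whether the mRNAs of the regulators themselves differ between WT cells, cells without a working snf22 gene and cells with Snf22 altered in its ATPase site.

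The libraries held 15696972 to 22664218 counted reads each, of which the 63 genes took 0.810% to 0.959%. Counts below are normalized to a common library size. The snf22 gene itself gave 2835, 2779 and 2738 normalized counts in WT, 1471, 1379 and 1222 in snf22∆ and 1966, 2273 and 2312 in the ATPase-site mutant. The gene was lower in both mutants and not at 0 in the deletion, and counts per gene do not show where in it the reads lie. All 6 markers of M cells, the cell type of h- strains, were detected in all libraries, with summed counts of 4566 to 4762 in WT, 2540 to 3394 in snf22∆ and 8833 to 9382 in the ATPase-site mutant. The 3 markers of P cells summed to 1588 to 1961 and none was at 0. WT replicate 2 stood apart from its group. Its counts differed from those of WT replicates 1 and 3 by a chi-square of 71.6 and 59.8 per gene, against 9.31 between those 2, and its sum over 8 stress and stationary-phase markers was 95454, against 63320 and 61763. Replicate 1 of the ATPase-site mutant stood apart in the same way (33.7 and 35.8 against 5.26). WT replicate 2 was the highest WT library for 37 of 61 members and for 44.7% of coding genes. The part of these libraries in the results was not tested beyond leaving them out.

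Of the 63 genes, 61 had at least 10 counts in at least 3 libraries and were tested. The silent mating-type copy mat3-Mc had no count in any library, and its reads cannot be told from those of the identical active copy. cuf2, a meiotic copper-dependent regulator, had 1 to 12 raw counts. Per kilobase of exon in WT, the tested members ranged from 24.2 to 8880 normalized counts with a median of 819, against a median of 693 over 4988 coding genes. The highest were zip1, a bZIP regulator of the cadmium response, at 8880, fil1, a GATA factor of amino acid starvation, at 8486, and prr1, a response regulator of oxidative stress genes, at 3527. The lowest were SPBC1773.12 at 48.2, and the ATF/CREB-type bZIP genes atf31 at 36.2 and atf21 at 24.2 per kilobase. The spread between replicates was a median coefficient of variation of 9.62% in WT, 3.37% in snf22∆ and 6.27% in the ATPase-site mutant over the members, and 12.2%, 4.60% and 6.25% over coding genes.

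In snf22∆ the largest decreases among the members were in hsr1, a C2H2 zinc finger gene of the hydrogen peroxide response, SPAC11D3.17, a binuclear cluster gene, and cbf12, a CSL factor of cell adhesion. These 3 members were called lower (at least 2-fold, adjusted p at most 0.05 by edgeR's quasi-likelihood test and a mean of at least 100 in the higher group) and 0 were called higher, where 2.22% of the 4990 coding genes tested were called in each direction. The genes left out by name are not in these counts, and the authors' published lists hold some of them at 2-fold or more. There SPBC1348.12 was higher in both mutants, map1 was higher in the ATPase-site mutant and ste11 and grt1 were lower in snf22∆. The published fall of grt1 was deeper than that of any member here. In the same lists rsv1 and scr1 were higher in snf22∆. The selection names both, but they are described there as transcription repressors. At an unadjusted p under 0.05 and any fold, 15 members were higher and 17 lower, and 0 of the higher ones reached 2-fold. DESeq2 also called 3 lower and 0 higher. By the adjusted p alone 14 members were higher and 15 lower, 23.0% and 24.6% of those tested, against 33.5% and 24.6% of coding genes. All 3 snf22∆ libraries lay above all 3 WT libraries for 15 members and below them for 23, against 36.4% and 29.1% of coding genes. The log2 fold changes ran from -1.35 to 0.54 with a median of -0.08, against 0.06 over coding genes, and 34 of 61 members were within 1.2-fold of WT. In RNA from whole cultures, fewer cells that express a gene and less RNA per cell cannot be told apart. Without snf22∆ replicate 1 the members higher by the adjusted p fell from 14 to 9, and without WT replicate 2 and ATPase-site mutant replicate 1 the counts were 17 higher and 19 lower, with the same number called. The member median became -0.03 without WT replicate 2 and 0.00 without both libraries that stood apart, against coding medians of 0.04 and 0.07. Without WT replicate 3 it became -0.13, against 0.05.

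In the ATPase-site mutant 5 members were called lower, namely cbf12 and 4 binuclear cluster genes with no given name, SPBC1773.12, SPAC2H10.01, SPBC530.11c and SPAC11D3.17. None was called higher (13 were higher at an unadjusted p under 0.05, 0 of them by 2-fold, and DESeq2 called 0 higher and 5 lower). Of coding genes 1.56% were called higher and 1.74% lower. By the adjusted p alone 9 members were higher and 23 lower, 14.8% and 37.7%, against 28.2% and 19.6% of coding genes. The libraries did not overlap those of WT for 10 members that were higher and 29 that were lower (30.2% and 22.7% of coding genes). The median log2 fold change was -0.14 against 0.06 over coding genes, the range was -1.46 to 0.47, and 32 members were within 1.2-fold of WT. The 9 higher members became 5 without WT replicate 1, 4 without mutant replicate 2 and 3 without mutant replicate 3, and the last also left 15 of the 23 lower ones. Without both libraries that stood apart the counts were 9 higher and 25 lower, and 5 were called. The number called lower was 4 to 6 over the libraries left out. Both comparisons use the same WT libraries, so they are not independent of each other.

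**Figure D1:**
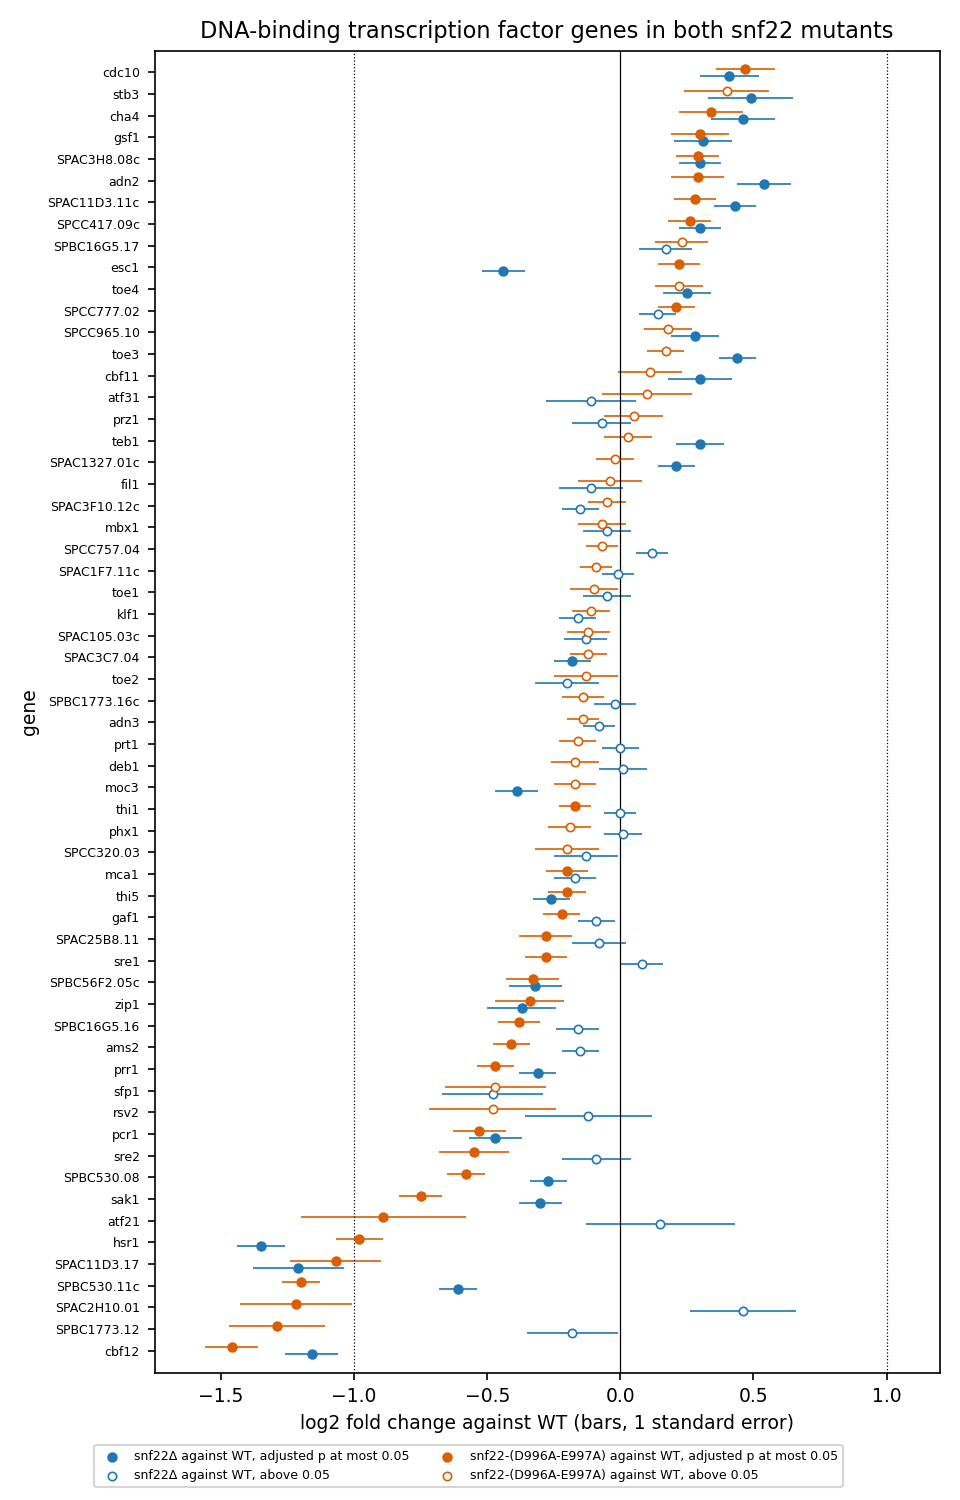
log2 fold change against WT (x axis, bars are 1 standard error) of 60 of the 61 tested transcription factor genes (y axis, ordered by the ATPase-site mutant), blue for snf22∆ and orange for snf22-(D996A-E997A), filled where the adjusted p was at most 0.05. Dotted lines mark 2-fold; the points reach -1.35 in snf22∆ and -1.46 in the ATPase-site mutant on the left and 0.54 and 0.47 on the right, and esc1 is filled on opposite sides of 0.

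The deepest decrease of a member in snf22∆ was that of hsr1. It had 7443, 9004 and 7043 normalized counts in the WT libraries, 3225, 3064 and 2917 in snf22∆ and 4079, 3982 and 3888 in the ATPase-site mutant. The 3 genotypes did not overlap, and the deletion was the lowest. The log2 fold change was -1.35 ± 0.09 (SE, adjusted p = 6.16e-07) in snf22∆ and -0.98 ± 0.09 (adjusted p = 1.18e-05) in the ATPase-site mutant, which lies just outside the 2-fold limit. Between the mutants hsr1 was higher in the ATPase-site mutant by 0.38 ± 0.09 (adjusted p = 0.015), which no longer passed without snf22∆ replicate 2, snf22∆ replicate 3 or mutant replicate 2 (adjusted p = 0.055 to 0.0705).

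cbf12 and its relative cbf11 moved differently. CSL proteins are known from Notch signalling in animals, and in fission yeast Cbf12 promotes and Cbf11 limits cell adhesion. cbf12 had 1348, 1211 and 1363 normalized counts in WT, 586, 615 and 557 in snf22∆ and 419, 500.5 and 502 in the ATPase-site mutant, with no overlap between any 2 genotypes. Its log2 fold change was -1.16 ± 0.10 (adjusted p = 3.91e-06) and -1.46 ± 0.10 (adjusted p = 1.05e-06). The further 0.31 below snf22∆ in the ATPase-site mutant missed the threshold (-0.31 ± 0.10, adjusted p = 0.0534). It passed with DESeq2 (adjusted p = 0.0358), with only the 2 groups compared (0.0383), without WT replicate 2 (0.0266) and without both libraries that stood apart (0.046), and reached 0.18 when single libraries were left out. The coding gene after cbf12, aro2, was also lower, by -0.46 in snf22∆ (adjusted p = 3.15e-04) and -0.26 in the ATPase-site mutant (adjusted p = 0.0106). meu10, before it, had 0.37 in snf22∆ (adjusted p = 0.0567) and -0.81 in the ATPase-site mutant (adjusted p = 0.00238). For cbf11 the WT libraries gave 2109, 1482 and 1991, snf22∆ 2447, 2233 and 2207 and the ATPase-site mutant 1782, 2138 and 2089. WT replicate 2 was the lowest of the 9, and without it the rise of 0.30 in snf22∆ (adjusted p = 0.0495) became 0.13 (adjusted p = 0.211). It also no longer passed without 6 of the other libraries, WT replicate 3, every snf22∆ replicate and mutant replicates 2 and 3.

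SPAC11D3.17 had 858, 1299 and 1017 normalized counts in WT, 437, 480 and 452 in snf22∆ and 641, 442 and 424 in the ATPase-site mutant. Replicate 1 of the ATPase-site mutant was the highest of the mutant libraries and still below every WT library. The log2 fold change was -1.21 ± 0.17 (adjusted p = 2.35e-04) in snf22∆ and -1.07 ± 0.17 (adjusted p = 6.70e-04) in the ATPase-site mutant, and both values passed the adjusted p in every alternative run. The change in the ATPase-site mutant was under 2-fold, and so not called, without WT replicate 2 (-0.91), and likewise without mutant replicate 2 or 3 and with upper-quartile factors. SPAC11D3.11c, a truncated binuclear cluster gene with 4 coding genes between it and SPAC11D3.17 in the reference order, went the other way. It gave 832, 797 and 822 in WT, 1163, 1113 and 1015 in snf22∆ and 967, 1012 and 988 in the ATPase-site mutant, without overlap with WT in either mutant. It rose by 0.43 ± 0.08 (adjusted p = 9.63e-04) and by 0.28 ± 0.08 (adjusted p = 0.0136, and 0.0519 without mutant replicate 3).

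**Figure D2:**
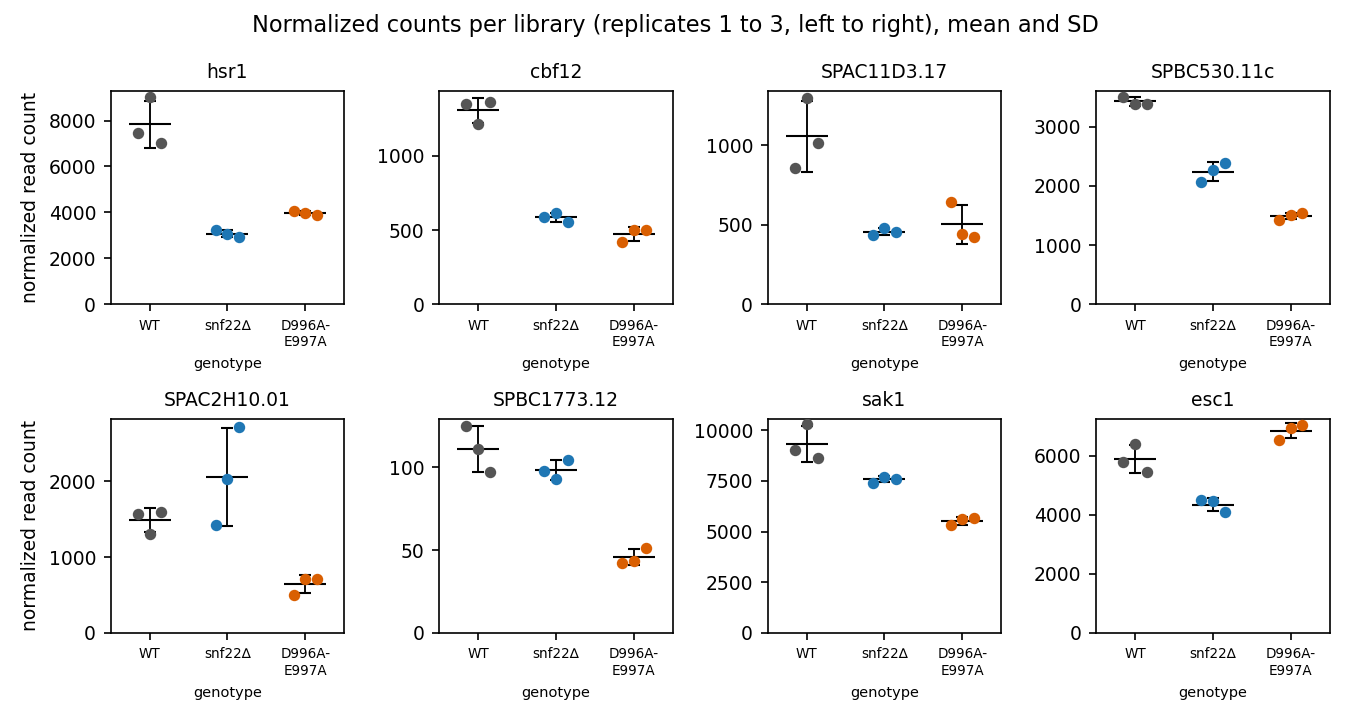
Normalized read counts (y axis, from 0) of 8 transcription factor genes in each of the 9 libraries by genotype (x axis), with the mean and SD of the 3 replicates as black bars. In hsr1, cbf12, SPAC11D3.17, SPBC530.11c and sak1 every mutant library lies below every WT library, SPAC2H10.01 and SPBC1773.12 are low in the ATPase-site mutant, and esc1 is lower than WT in snf22∆ and higher in the ATPase-site mutant.

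SPBC530.11c showed a graded decrease. Its normalized counts were 3507, 3391 and 3380 in WT, 2063, 2268 and 2389 in snf22∆ and 1429, 1503 and 1535 in the ATPase-site mutant, 3 groups with no overlap. The log2 fold change was -0.61 ± 0.07 (adjusted p = 4.20e-05) in snf22∆ and -1.20 ± 0.07 (adjusted p = 3.78e-07) in the ATPase-site mutant, and the direct difference of -0.59 ± 0.07 passed the test (adjusted p = 1.79e-04). In the reference gene order 2 coding genes separate it from SPBC530.08 (ntu2), a membrane-tethered factor, which gave 6392, 7049 and 6241 in WT, 5478, 5442 and 5414 in snf22∆ and 4508, 4387 and 4297 in the ATPase-site mutant. Again the 3 groups did not overlap. SPBC530.08 fell by 0.27 ± 0.07 (adjusted p = 0.00513) and by 0.58 ± 0.07 (adjusted p = 5.91e-05) on the log2 scale. All of these values passed the adjusted p in every alternative run. A further member of this stretch, prt1, gave 2218, 2341 and 2113 in WT and 1824, 2080 and 2084 in the ATPase-site mutant and did not pass the test in either mutant. The coding genes on each side of SPBC530.11c are no transcription factor genes. anc1, the mitochondrial ADP/ATP carrier, rose by 0.70 in snf22∆ (adjusted p = 1.64e-04), with 0.05 (adjusted p = 0.655) in the ATPase-site mutant. pdf1, a thioesterase-phosphatase fusion gene, rose by 0.25 and 0.29 (adjusted p = 0.046 and 0.0294).

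SPAC2H10.01 was the member in which the mutants differed most. It had 1565, 1309 and 1595 normalized counts in WT, 1428, 2027 and 2714 in snf22∆ and 502, 715 and 704 in the ATPase-site mutant. The snf22∆ libraries were widely spread (a coefficient of variation of 31.3%, the highest of the members in that genotype) and overlapped WT, whereas the ATPase-site mutant libraries were below all others. The log2 fold change was -1.22 ± 0.21 (adjusted p = 8.67e-04) in the ATPase-site mutant and 0.46 ± 0.20 (adjusted p = 0.0646) in snf22∆. The snf22∆ value passed with the replicate number as a block (0.42, adjusted p = 0.0382) and without snf22∆ replicate 1 (0.67, adjusted p = 0.0091). Between the mutants the difference was -1.68 ± 0.21 (adjusted p = 2.28e-04). The gene after it, nas2, a proteasome assembly chaperone, was higher in both mutants, by 0.79 (adjusted p = 0.00277) and 0.85 (adjusted p = 0.00261).

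SPBC1773.12 was one of the most weakly expressed members, with 125, 111 and 97.3 normalized counts in WT, 98.0, 92.8 and 104 in snf22∆ and 42.3, 43.3 and 51.2 in the ATPase-site mutant. The ATPase-site mutant lay apart and snf22∆ overlapped WT. Its log2 fold change was -1.29 ± 0.18 (adjusted p = 2.24e-04) there and -0.18 ± 0.17 (adjusted p = 0.367) in snf22∆, and the difference between the mutants was -1.11 ± 0.18 (adjusted p = 0.00145). Its neighbour SPBC1773.13, an aminotransferase gene, also fell by 0.53 in the ATPase-site mutant (adjusted p = 0.00696), with 0.14 (adjusted p = 0.365) in snf22∆. On the other side mug89, a subunit gene of a lipid-translocating ATPase, fell in both, by -0.37 in snf22∆ (adjusted p = 0.00364) and -0.33 in the ATPase-site mutant (adjusted p = 0.00843). SPBC1773.16c, a further binuclear cluster gene with 3 coding genes between it and SPBC1773.12, had 825 to 939 counts in WT, 829 to 919 in snf22∆ and 776 to 825 in the ATPase-site mutant and did not pass the test.

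Among the 15 binuclear cluster genes, 3 were higher and 2 lower by the adjusted p in snf22∆, with a median log2 fold change of -0.05, where 33.5% and 24.6% of coding genes were. In the ATPase-site mutant 1 was higher and 6 lower with a median of -0.13, where 28.2% and 19.6% of coding genes were, and 4 of them were called, against 1.74% of coding genes called lower. Between the mutants 4 were lower in the ATPase-site mutant (SPAC2H10.01, SPBC1773.12, SPBC530.11c and SPAC1327.01c), against 8.00% of coding genes. Over all 61 members, 32 to 47 of which differed by less than 1.2-fold in each comparison, the medians were -0.08, -0.14 and -0.07. The class is set by the words of the product description, and 41 of the 63 members, SPAC11D3.11c among them, name none of the classes searched for.

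The stress regulators other than hsr1 moved by less than 2-fold. pcr1, the bZIP partner of the stress factor Atf1, had 1979, 2307 and 1836 normalized counts in WT, 1429, 1427 and 1565 in snf22∆ and 1589, 1278 and 1365 in the ATPase-site mutant. Both mutants lay below WT, by -0.47 ± 0.10 (adjusted p = 0.00266) and -0.53 ± 0.10 (adjusted p = 0.00184). prr1 gave 7181, 8084 and 7029 in WT, 5809, 6035 and 6183 in snf22∆ and 5504, 5277 and 5287 in the ATPase-site mutant. It fell by 0.31 ± 0.07 (adjusted p = 0.00372) and 0.47 ± 0.07 (adjusted p = 4.10e-04), and as with pcr1 both values passed in every alternative run. zip1 had 11881, 16620 and 12123 in WT, 10361, 10750 and 10405 in snf22∆ and 12296, 10091 and 9620 in the ATPase-site mutant, which overlapped WT. Its changes of -0.37 ± 0.13 (adjusted p = 0.0304) and -0.34 ± 0.13 (adjusted p = 0.045) rested in part on WT replicate 2, without which they were -0.22 (adjusted p = 0.0518) and -0.18 (adjusted p = 0.112). They were also lost without any 1 snf22∆ library, and in the ATPase-site mutant without its replicate 2 or 3 (adjusted p up to 0.144).

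The weakly expressed atf21, a bZIP gene known from meiosis and sporulation, had 26.4, 43.1 and 35.0 normalized counts in WT, 35.9, 44.2 and 35.4 in snf22∆ and 25.6, 12.8 and 17.4 in the ATPase-site mutant. The ATPase-site mutant libraries were the 3 lowest, the highest of them only just below WT replicate 1. Its value there was -0.89 ± 0.31 (adjusted p = 0.0311), against 0.15 ± 0.28 (adjusted p = 0.657) in snf22∆, and the direct difference was -1.05 ± 0.30 (adjusted p = 0.0315). With counts this low the tests were unstable. The difference from WT was lost without WT replicate 2 or mutant replicate 2 or 3 (adjusted p = 0.0868 to 0.112), and the direct one without any snf22∆ library or mutant replicate 2 or 3 (adjusted p = 0.0652 to 0.131). atf31 gave 80.6 to 98.6 in WT, 78.7 to 83.1 in snf22∆ and 82.0 to 103 in the ATPase-site mutant and did not pass the test.

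sak1, an RFX-family factor, had 9038, 10314 and 8615 normalized counts in WT, 7417, 7702 and 7621 in snf22∆ and 5303, 5627 and 5676 in the ATPase-site mutant. The genotypes did not overlap, and the order was the same as for SPBC530.11c. sak1 changed by -0.30 ± 0.08 (adjusted p = 0.00667) in snf22∆, -0.75 ± 0.08 (adjusted p = 2.72e-05) in the ATPase-site mutant and -0.45 ± 0.08 (adjusted p = 0.00217) between them. These sak1 values passed the adjusted p in every alternative run.

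esc1, a bHLH gene of sexual development, was the member that moved in opposite directions. Its normalized counts were 5798, 6391 and 5460 in WT, 4493, 4462 and 4077 in snf22∆ and 6548, 6938 and 7027 in the ATPase-site mutant. The 3 groups did not overlap, although WT replicate 2 came close to the lowest ATPase-site mutant library. It fell by 0.44 ± 0.08 in snf22∆ (adjusted p = 7.47e-04), and the difference between the mutants was 0.65 ± 0.08 (adjusted p = 1.54e-04). The rise of 0.22 ± 0.08 in the ATPase-site mutant (adjusted p = 0.0342) was lost without WT replicate 1 or 3, snf22∆ replicate 2, or mutant replicate 2 or 3 (adjusted p = 0.0558 to 0.0933). The summed count of the 6 M-cell markers had the same order over genotypes as esc1, lowest in snf22∆ and highest in the ATPase-site mutant, and its part in this result was not tested. The order did not hold for each marker: sxa2 had 215 to 261 in WT and 340 to 378 in snf22∆, and mam2 overlapped between those genotypes (198 to 259 and 122 to 227). moc3, a zinc-cluster gene also studied in sexual development, gave 2935, 3076 and 2522 in WT, 2084, 2207 and 2229 in snf22∆ and 2595, 2509 and 2499 in the ATPase-site mutant. snf22∆ alone lay apart from WT, by -0.39 ± 0.08 (adjusted p = 0.00162), and the difference between the mutants did not pass (adjusted p = 0.0722).

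Among the regulators of sterols and thiamine, sre1, the fission yeast SREBP that activates sterol and low-oxygen genes, had 5305, 6144 and 4974 normalized counts in WT, 5781, 5715 and 5825 in snf22∆ and 4374, 4595 and 4547 in the ATPase-site mutant. snf22∆ overlapped WT and the ATPase-site mutant lay below both. It was lower there by -0.28 ± 0.08 against WT (adjusted p = 0.0133) and by -0.36 ± 0.08 against snf22∆ (adjusted p = 0.01). sre2, its membrane-tethered relative, gave 4882, 6924 and 4758 in WT, 5115, 5232 and 5179 in snf22∆ and 4303, 3509 and 3536 in the ATPase-site mutant. The change there was -0.55 ± 0.13 (adjusted p = 0.00644), and the direct difference of -0.45 ± 0.13 (adjusted p = 0.0365) was lost without any snf22∆ library or mutant replicate 2 or 3 (adjusted p = 0.0937 to 0.139). thi5 fell by 0.26 ± 0.07 in snf22∆ (adjusted p = 0.00971). It had 1571 to 1767 counts in WT, 1337 to 1444 in snf22∆ and 1417 to 1487 in the ATPase-site mutant, and both mutants lay below WT. Its value of -0.20 in the ATPase-site mutant (adjusted p = 0.0364) was lost without WT replicate 1, snf22∆ replicates 2 or 3, or any mutant library (adjusted p = 0.0515 to 0.102). thi1, the activator of thiamine genes, had 3661 to 3688 in WT, 3669 to 3682 in snf22∆ and 3047 to 3419 in the ATPase-site mutant. The last group lay apart by -0.17 (adjusted p = 0.0414), and this was lost without 7 of the 9 libraries, all but WT replicate 2 and mutant replicate 2 (adjusted p = 0.0632 to 0.128).

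The members that rose did so by less than 1.5-fold. adn2, a factor needed for cell adhesion, had 859, 727 and 925 normalized counts in WT, 1244, 1162 and 1248 in snf22∆ and 1097, 953 and 1028 in the ATPase-site mutant. Every mutant library was above every WT library. It rose by 0.54 ± 0.10 in snf22∆ (adjusted p = 9.06e-04), the largest rise there. In the ATPase-site mutant the value was 0.29 ± 0.10 (adjusted p = 0.028), which was lost without WT replicate 1 or 2 or mutant replicate 1 or 3 (adjusted p = 0.0503 to 0.0903). cdc10, the shared subunit of the MBF complex that drives G1/S genes, had the largest rise in the ATPase-site mutant. It gave 1013, 778 and 1093 in WT, 1341, 1255 and 1238 in snf22∆ and 1341, 1297 and 1365 in the ATPase-site mutant, where both mutants lay above WT and WT replicate 2 was the lowest library. The changes were 0.41 ± 0.11 (adjusted p = 0.00781) and 0.47 ± 0.11 (adjusted p = 0.00502). Over the alternative runs they ranged from 0.25 to 0.49 in snf22∆ and from 0.33 to 0.57 in the ATPase-site mutant. All of these passed the adjusted p.

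toe3 had 2702, 3212 and 2781 normalized counts in WT, 3947, 4007 and 3875 in snf22∆ and 3357, 3253 and 3150 in the ATPase-site mutant. snf22∆ was above both other groups. It rose by 0.44 ± 0.07 (adjusted p = 5.51e-04) in snf22∆, and the ATPase-site mutant was lower than snf22∆ by -0.28 ± 0.07 (adjusted p = 0.0238), which was lost without any snf22∆ library or mutant replicate 2 or 3 (adjusted p = 0.0652 to 0.0938). cha4 gave 267 to 319 in WT, 358 to 444 in snf22∆ and 357 to 405 in the ATPase-site mutant, so that both mutants lay above WT. Its 0.46 ± 0.12 in snf22∆ (adjusted p = 0.00807) held in every alternative run, and its 0.34 ± 0.12 in the ATPase-site mutant (adjusted p = 0.0411) held only without WT replicate 1 or snf22∆ replicate 2 among the libraries left out (adjusted p = 0.0518 to 0.157 without any of the others). gsf1, a repressor of flocculation genes, gave 2808 to 3485 in WT, 3531 to 3979 in snf22∆ and 3312 to 4321 in the ATPase-site mutant. Its changes of 0.31 (adjusted p = 0.0335) and 0.30 (adjusted p = 0.0446) were lost without WT replicate 1 or 3. In snf22∆ it was also lost without snf22∆ replicate 2 or 3, and in the ATPase-site mutant without any snf22∆ library or mutant replicate 1 (adjusted p up to 0.182).

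Smaller rises were shared by SPAC3H8.08c and SPCC417.09c, whose roles the annotation does not give. SPAC3H8.08c had 831 to 869 normalized counts in WT, 987 to 1089 in snf22∆ and 991 to 1133 in the ATPase-site mutant, and SPCC417.09c had 749 to 813, 920 to 1004 and 925 to 988. Neither gene overlapped WT in either mutant. The 2 genes rose by 0.30 each in snf22∆ (adjusted p = 0.0086 and 0.00781) and by 0.29 and 0.26 in the ATPase-site mutant (adjusted p = 0.0134 and 0.0174), where they no longer passed without mutant replicate 2 (adjusted p = 0.0625 and 0.0665) and, for SPCC417.09c, also without mutant replicate 3 (adjusted p = 0.0519). stb3 gave 882 to 1148 in WT, 1236 to 1537 in snf22∆ and 965 to 1488 in the ATPase-site mutant. Its 0.49 in snf22∆ (adjusted p = 0.0206) was lost without WT replicate 1 or 2 or snf22∆ replicate 1 (adjusted p = 0.0621 to 0.0833). teb1, a Myb-type factor that binds telomere-like repeats, had 635 to 671 in WT, 766 to 865 in snf22∆ and 630 to 707 in the ATPase-site mutant. It rose in snf22∆ by 0.30 (adjusted p = 0.0132, and 0.0687 without snf22∆ replicate 1). SPBC56F2.05c, of unknown role, was lower in both mutants, with 908 to 1205 in WT, 808 to 841 in snf22∆ and 795 to 830 in the ATPase-site mutant. Its values of -0.32 (adjusted p = 0.0209) and -0.33 (adjusted p = 0.0211) were lost without snf22∆ replicate 1 or 2 and without mutant replicate 2 or 3, respectively (adjusted p = 0.0594 to 0.0644). SPCC777.02 had 1707 to 1831 in WT, 1784 to 2088 in snf22∆ and 2003 to 2096 in the ATPase-site mutant. Its rise of 0.21 there (adjusted p = 0.0344) was lost without WT replicate 1, snf22∆ replicate 2 or any mutant library (adjusted p = 0.0571 to 0.106).

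Further members passed the adjusted p with small changes, 4 in snf22∆ (toe4, SPAC1327.01c, SPAC3C7.04 and SPCC965.10), between -0.18 and 0.28, and 5 in the ATPase-site mutant (SPAC25B8.11, mca1, SPBC16G5.16, gaf1 and ams2), between -0.41 and -0.20. gaf1 is a GATA factor of the nitrogen response and ams2 a GATA factor of histone genes, and these names were chosen after their values were seen. ams2 had 3151, 3055 and 3030 normalized counts in WT, 2780, 2756 and 2775 in snf22∆ and 2570, 2216 and 2171 in the ATPase-site mutant, 3 groups without overlap. The 20 members past the adjusted p in neither mutant had log2 fold changes of -0.48 to 0.23. They include mbx1, a MADS-box gene of the M/G1 programme, at 2187 to 2800 in WT, 2285 to 2416 in snf22∆ and 2190 to 2439 in the ATPase-site mutant. They also include fil1, at 22293 to 31514, 22991 to 24230 and 23685 to 27399. In both genes WT replicate 2 was the highest of the 9 libraries.

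The direct comparison of the mutants asks where an altered Snf22 differs from a deleted one. Of the 61 members, 1 was called lower in the ATPase-site mutant, SPAC2H10.01, and 0 higher (3 were higher at an unadjusted p under 0.05, and DESeq2 called 0 higher and 1 lower), against 0.822% of coding genes called higher and 0.721% lower. By the adjusted p 2 members, esc1 and hsr1, were higher in the ATPase-site mutant and 11 lower, 3.28% and 18.0%, against 8.32% and 8.00% of coding genes. Besides those described above, the lower ones were SPAC1327.01c and ams2, by -0.24 and -0.26. The libraries did not overlap for 4 members that were higher and 29 that were lower, against 24.6% and 23.6% of coding genes. The median was -0.07 against -0.01 over coding genes. The 11 lower members became 6 without any 1 snf22∆ library or without mutant replicate 2 or 3, 18 without WT replicate 2, which enters only through the shared estimate of the spread and the scaling, and 21 without both libraries that stood apart. The 2 higher ones became 1 without snf22∆ replicate 2 or 3 or mutant replicate 2, and without WT replicate 3 a second member was called lower.

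**Figure D3:**
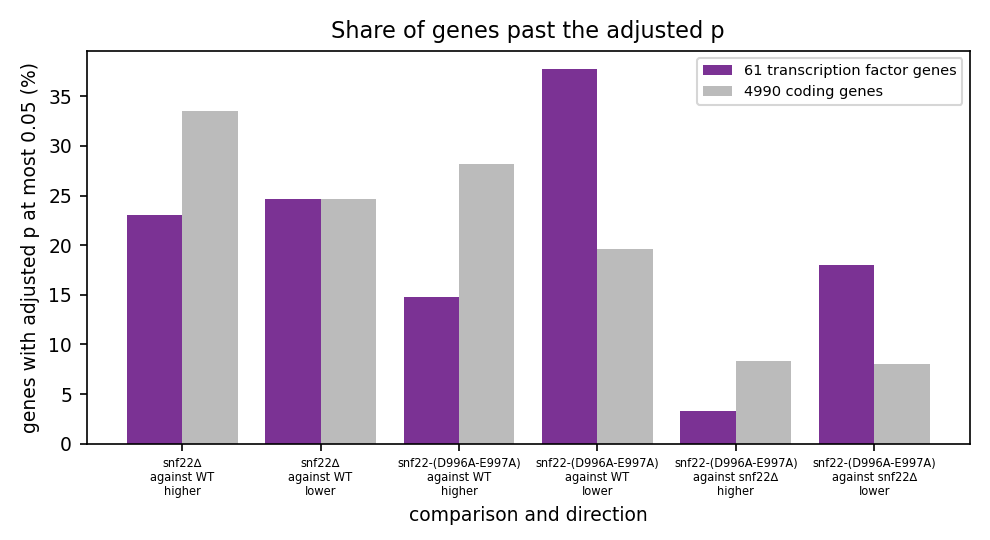
Share of genes with an adjusted p of at most 0.05 (y axis, %) by comparison and direction (x axis), for the 61 tested transcription factor genes (purple) and all 4990 coding genes tested (grey). In the ATPase-site mutant against WT the lower share is 37.7% of the members and 19.6% of coding genes and the higher share 14.8% and 28.2%, while in snf22∆ the lower shares are both 24.6%.

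Some members act with partners that are not in the selected set. Of the MBF partners, res1, a DNA-binding subunit, fell by 0.39 in snf22∆ (adjusted p = 5.93e-04) and by 0.17 in the ATPase-site mutant (adjusted p = 0.0448), while res2, the alternative subunit, rose by 0.49 in snf22∆ (adjusted p = 0.00307) and had 0.17 (adjusted p = 0.203) in the ATPase-site mutant. The activator gene rep1 fell by 0.86 (adjusted p = 5.02e-04) and 0.44 (adjusted p = 0.0231). nrm1, a corepressor of MBF, rose by 0.37 in snf22∆ (adjusted p = 0.0123). Together with cdc10 the subunits of this one complex thus included rises and falls. Of the CCAAT-binding complex, php5 fell by 0.39 (adjusted p = 0.0035) and 0.33 (adjusted p = 0.0116), php2 rose by 0.24 in snf22∆ (adjusted p = 0.0135) and php3 did not pass the test. The forkhead gene fkh2 rose by 0.37 in snf22∆ (adjusted p = 0.0197), sep1 did not pass in either mutant, and reb1, which binds ribosomal DNA and other sites, rose by 0.59 (adjusted p = 0.00268) and 0.39 (adjusted p = 0.0268).

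Known target genes of 7 sets of regulators were read beside the regulators' own mRNAs, with a median log2 fold change over coding genes of 0.06 in each mutant. Each list's counts are to be read against the coding genes past the adjusted p, which were 33.5% up and 24.6% down in snf22∆, 28.2% and 19.6% in the ATPase-site mutant, and 8.32% and 8.00% between the mutants. The 8 tested Cbf12 targets, which encode cell-surface adhesins, gave 1 higher and 4 lower in each mutant, but these were not the same genes, and 4 of the 8 differed between the mutants. pfl8 had 732, 833 and 730 normalized counts in WT, 256, 249 and 255 in snf22∆ and 727, 858 and 690 in the ATPase-site mutant. It was low in snf22∆ alone, by -1.59 ± 0.11 (adjusted p = 7.93e-07), with -0.01 (adjusted p = 0.927) in the ATPase-site mutant and 1.58 ± 0.11 (adjusted p = 2.18e-06) between them. pfl7 had 383, 536 and 320 in WT, 186, 234 and 192 in snf22∆ and 856, 753 and 720 in the ATPase-site mutant. It fell by 1.02 ± 0.18 (adjusted p = 7.81e-04) in the first and rose by 0.91 ± 0.17 (adjusted p = 0.00157) in the second. The cbf12 mRNA was low in both mutants, and its part in the values of these targets was not tested. pfl2 rose by 0.68 in snf22∆ (adjusted p = 2.70e-05) and had -0.19 (adjusted p = 0.0433) in the ATPase-site mutant, a difference of -0.87 ± 0.07 (adjusted p = 1.06e-05). pfl5 had -0.09 (adjusted p = 0.462) and -0.71 (adjusted p = 3.08e-04), a difference of -0.62 ± 0.10 (adjusted p = 0.00181), and these 2 genes were named after their values were seen. pfl3 fell by 0.90 and 0.65 (adjusted p = 7.08e-06 and 1.08e-04) and pfl9 by 1.02 and 0.89 (adjusted p = 4.93e-04 and 0.00148) in both mutants. The other tested targets, gsf2 and pfl4, also named after their values were seen, did not pass in either mutant. gsf2 had 0.06 in snf22∆ and 0.01 in the ATPase-site mutant (adjusted p = 0.623 and 0.961). pfl4 had 0.11 and 0.07 (adjusted p = 0.196 and 0.416). Of the 7 Cbf11 targets, genes of lipid metabolism, 4 were lower in snf22∆ and 5 in the ATPase-site mutant (median -0.23 and -0.29). vht1, the biotin transporter gene, had 16526, 17368 and 16162 in WT, 6509, 6985 and 7031 in snf22∆ and 5274, 5130 and 4985 in the ATPase-site mutant. Its log2 fold change was -1.29 ± 0.07 (adjusted p = 8.55e-08) and -1.70 ± 0.07 (adjusted p = 1.33e-08), and the 5 became 3 without mutant replicate 2 or 3.

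Of the 8 Sre1 targets found, 6 were lower in snf22∆ and 3 in the ATPase-site mutant, with medians of -0.27 and -0.22. The sterol genes erg31 and erg1 fell by 1.35 and 0.64 in snf22∆ (adjusted p = 7.43e-07 and 7.80e-05) and by 1.26 and 0.57 in the ATPase-site mutant (adjusted p = 1.96e-06 and 2.32e-04). The sre1 mRNA passed the test in the ATPase-site mutant and not in snf22∆, and its part in the values of these targets was not tested. The 6 became 3 without any 1 snf22∆ library, and the 3 became 5 without WT replicate 3. Of the 6 Thi1 targets, 3 were lower in snf22∆ and 2 in the ATPase-site mutant. The thiamine transporter gene thi9 fell by 1.31 and 1.47 (adjusted p = 2.01e-05 and 1.26e-05) and bsu1 by 0.57 and 0.43 (adjusted p = 6.26e-04 and 0.0043). Of the 4 targets of Prz1, the calcineurin-responsive factor, 2 rose in snf22∆, the calcium sensor gene ncs1 by 0.51 (adjusted p = 4.80e-04) and the kinase gene cmk1 by 0.38 (adjusted p = 0.00269). In the ATPase-site mutant their values were 0.12 (adjusted p = 0.248) and 0.07 (adjusted p = 0.485). Without both libraries that stood apart 4 rose in snf22∆. The prz1 mRNA itself had -0.07 in snf22∆ (adjusted p = 0.581) and 0.05 in the ATPase-site mutant (adjusted p = 0.717).

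The 14 MBF targets were mixed, 5 higher and 2 lower in snf22∆ and 4 higher and 3 lower in the ATPase-site mutant. The cohesin gene psm3 rose by 0.94 and 0.56 (adjusted p = 0.00103 and 0.0207), the repair gene ctp1 by 0.75 and 0.45 (adjusted p = 0.00139 and 0.0268) and the replication checkpoint gene mrc1 by 0.69 and 0.77 (adjusted p = 0.00796 and 0.00614). In all 3 genes WT replicate 2 was the lowest WT library. Others went the other way, here named after their values were seen. The cyclin gene cig2 had -0.64 in snf22∆ (adjusted p = 1.30e-04) and -0.15 (adjusted p = 0.168) in the ATPase-site mutant, and the cohesin gene rad21 had -0.19 (adjusted p = 0.0322) and -0.43 (adjusted p = 6.23e-04). The 4 higher MBF targets in the ATPase-site mutant became 1 without mutant replicate 1 or 3, and the 3 lower became 5 without WT replicate 2 and 1 without mutant replicate 3, and the 2 lower in snf22∆ became 1 without WT replicate 1 or 3, any snf22∆ library or mutant replicate 3. Of the 14 forkhead and Mbx1 targets found, which serve mitosis and cytokinesis, 4 were higher and 3 lower in snf22∆ and 2 and 3 in the ATPase-site mutant. The chitin synthase-like gene chs2 rose by 0.68 in snf22∆ (adjusted p = 5.39e-05), with 0.01 (adjusted p = 0.909) in the ATPase-site mutant. The polo kinase gene plo1 rose by 0.62 and 0.49 (adjusted p = 7.11e-04 and 0.0038), and the anaphase activator slp1 fell by 0.55 and 0.37 (adjusted p = 0.00146 and 0.0145). The lower ones became 5 in each mutant without WT replicate 2. Between the mutants, 4 of the 61 tested genes of the 7 lists were higher in the ATPase-site mutant and 8 lower. The 4 became 9 without WT replicate 2, and the 8 became 5 without snf22∆ replicate 1 or 2 or mutant replicate 2 or 3 and 18 without both libraries that stood apart.

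**Figure D4:**
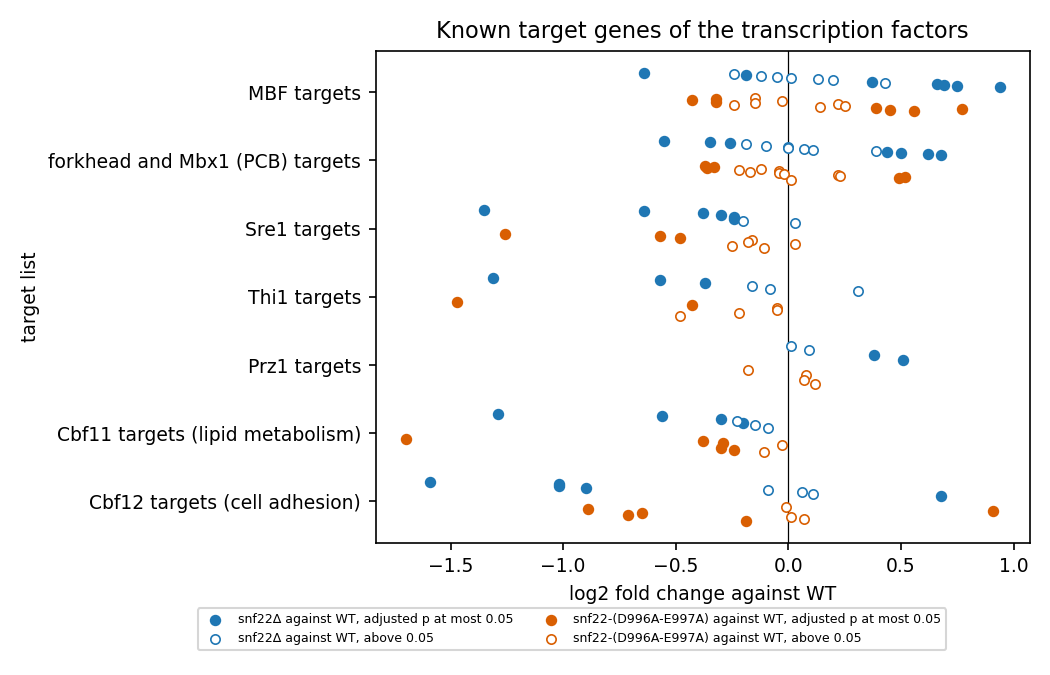
log2 fold change against WT (x axis) of the tested genes of 7 target lists (y axis), blue for snf22∆ and orange for snf22-(D996A-E997A), filled where the adjusted p was at most 0.05. The MBF targets lie on both sides of 0 in both mutants, and 1 of the Cbf12 targets, pfl8, reaches -1.59 in snf22∆ alone.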

How the data were processed

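The authors extracted RNA from 3 cultures per genotype, made stranded poly(A)+ libraries and deposited a matrix of raw read counts per gene, with no scaling. The submitters' processing notes name HISAT2 2.1.0, HTSeq 0.10.0, SAMtools and the build ASM294v2. Deposited tables that hold the authors' DESeq2 comparisons were used for gene names and product descriptions only. Their columns of log2 fold changes, p-values and group means were not used. The 2 lines of 1 repeated ID were summed.

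The fit took the 6091 genes that reached 10 counts in 3 or more libraries, used TMM scaling and edgeR 4.0.16 (quasi-likelihood test, genotype only, all 9 libraries, R 4.3.3), and adjusted p-values by Benjamini-Hochberg over all 6091. A gene was called when its adjusted p was 0.05 or less, its change 2-fold or more and its higher group averaged 100 normalized counts or more. The SE is the log2 coefficient divided by the root of F. The biological coefficient of variation was 0.104. The replicates are separate cultures of 1 strain each. Exon lengths were taken from RefSeq ASM294v3 for levels per kilobase, and its symbols were used where the deposited name had become a spreadsheet date (sep1) and for neighbours. All 63 members matched it. No sequence is shown because the reference build differs from that of the files.

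The members and the target, partner and marker lists were chosen with earlier results of these data known. Named members are those called in any comparison, the 10 largest changes each way past the adjusted p in each mutant and the 6 largest each way between the mutants, the partner members, the 3 highest and lowest by level per kilobase, those nearest the 2-fold limit, and up to 4 genes of each target list. The partner list holds subunits of MBF, the CCAAT-binding complex and the forkhead, sterol, CSL, thiamine and telomere regulators. In the target lists myo3 and ncp1 were not matched and pfl6 did not pass the filter.

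Same-numbered libraries of snf22∆ and WT deviated together over 5164 genes (correlations 0.33, 0.48 and 0.52), so their numbers were read as pairs. Those of the ATPase-site mutant and WT did not (-0.34, 0.08 and 0.56). The main fit took genotype only and did not use the pairs of snf22∆ and WT. Only the alternative run with the replicate number as a block used them, and it did so over all genotypes. The alternatives were DESeq2 1.42.0 (on the genes that passed the count filter, with its own filter on top), its size factors in edgeR, upper-quartile factors, no filter, at least 50 counts, only the 2 groups compared, the replicate number as a block, and leaving out each library. Leaving out WT replicate 2 and ATPase-site mutant replicate 1 together was chosen after seeing the data. Intervals and errors cover the spread between these libraries. The results of 1 tested member and of its targets are not reported here, and that member is counted among the 61.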

Additional observations from a re-analysis of the deposited data

Results flagged for a closer look

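Of the 13 members that differed between the mutants past the adjusted p (2 higher and 11 lower in the ATPase-site mutant), 4 did so by 2-fold or more or moved in opposite directions from WT, by a direct test of the mutants against each other (edgeR's quasi-likelihood test, 3 libraries each), and both effects were measured against the same WT libraries. SPAC2H10.01 was lower in the ATPase-site mutant than in snf22∆ by -1.68 (adjusted p = 2.28e-04), SPBC1773.12 by -1.11 (adjusted p = 0.00145) and atf21 by -1.05 (adjusted p = 0.0315). esc1 was higher by 0.65 (adjusted p = 1.54e-04). In each of these genes all 3 libraries of one mutant lay beyond all 3 of the other.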

How the results depend on the processing

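Of 61 named differences past the adjusted p, 38 stayed past it in all 17 alternatives and 23 lost it in at least 1. Of 1119 named values under the alternatives, 988 kept direction and side of the threshold, 122 lost the threshold, 6 gained it and 3 changed sign. The sign changes were SPAC11D3.17 between the mutants (0.14), at -0.08 without ATPase-site mutant replicate 1, also with WT replicate 2 left out, and 0.26 at the highest, and atf21 in snf22∆ (0.15), at -0.03 without WT replicate 1 and 0.34 at the highest. The cause was not tested. DESeq2 size factors left 5 members higher in the ATPase-site mutant. With only the 2 groups compared, which uses fewer libraries, 3 were higher and 15 lower there, and between the mutants 18 were lower and 2 called lower, as were 2 with upper-quartile factors. Those factors moved the coding median from 0.06 to 0.14 in snf22∆ and 0.13 in the ATPase-site mutant, and the member medians to 0.00 and -0.07. With them 1 MBF target was lower in each mutant, 2 Prz1 targets higher and 3 Cbf11 targets lower in the ATPase-site mutant, and 2 Cbf12 targets higher in snf22∆. With only the 2 groups, 1 MBF target was lower in snf22∆, 3 Cbf11 targets were lower in the ATPase-site mutant, and 9 genes of the 7 lists were higher between the mutants.

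Leaving out libraries gave, for members, 9 to 17 higher in snf22∆, 3 to 9 higher and 15 to 27 lower (4 to 6 called) in the ATPase-site mutant, and between the mutants 1 to 2 called lower, 1 to 3 higher and 6 to 21 lower. In snf22∆ it gave 1 to 3 lower MBF, 3 to 5 lower forkhead and Mbx1 and 3 to 7 lower Sre1 targets and 2 to 4 higher Prz1 targets. In the ATPase-site mutant it gave 1 to 4 higher and 1 to 6 lower MBF, 2 to 6 lower forkhead and Mbx1, 3 to 5 lower Sre1 and 3 to 5 lower Cbf11 targets. Over the 7 lists it gave 3 to 9 higher and 5 to 18 lower between the mutants.

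With the replicate number as a block, SPAC2H10.01 passed in snf22∆ (0.42, adjusted p = 0.0382), and gsf1 in the ATPase-site mutant, whose numbers are not pairs, did not (adjusted p = 0.0547). The block changed no other named result. Few counts limit atf21, SPBC1773.12 and cuf2.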
